A study of Homo sapiens with 16 samples.

Results

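Sterol regulatory element-binding proteins (SREBPs) are transcription factors that are made as inactive precursors in the membrane of the endoplasmic reticulum. When sterols are scarce, the escort protein SCAP carries the precursor to the Golgi apparatus, where proteases release its DNA-binding part, and when sterols are plentiful the INSIG proteins hold SCAP back. Many enzymes of cholesterol and fatty acid synthesis are known targets of the released factor, INSIG1 among them as a brake on its own activator, and several of these enzymes, such as the desaturases and the sterol demethylating CYP51A1, consume molecular oxygen.

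The genes described here were a list of 35: 5 regulators (SREBF1, SREBF2, SCAP, INSIG1 and INSIG2), 19 genes of cholesterol synthesis and transport, and 11 genes of fatty acid synthesis. The rule names known SREBP regulators and targets and sets no threshold on a measured value, and 34 of them were measured among 19356 protein-coding genes. ACACA, the acetyl-CoA carboxylase that commits carbon to fatty acid synthesis, was not analysed here, since its transcripts could not be matched to the gene, which leaves 10 fatty acid genes.

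RNA was sequenced from the isogenic BJ model, a human foreskin fibroblast line taken through 4 stages: primary BJ cells, cells immortalized by hTERT (BJ hTERT+), cells transformed by the addition of SV40 Large-T (BJ hTERT+ SV40+), and metastasizing cells that also carry an oncogenic Ras (BJ hTERT+ SV40+ Ras-G12V). Each stage was grown for 6 passages in medium with 10% fetal bovine serum and 5% CO2, at atmospheric oxygen or at 3% oxygen, which is moderate hypoxia, and every stage and oxygen level has 2 libraries, a and b, 16 in all. The duplicates were plates of one line kept in parallel, so p-values measure the spread between such plates, pooled for each gene over all 8 groups. Serum supplies cholesterol and fatty acids to all 8 groups, the line is a fibroblast line from 1 source, and the model was built at atmospheric oxygen.

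VIM was at least 2.62e+03 TPM and COL1A1 at least 107 TPM in every library, although the lowest libraries held 2.23 TPM of DCN and 4 TPM of LUM, which are also fibroblast markers, and 17 of 18 defining markers of adipocytes, hepatocytes, epithelial cells, endothelial cells and leukocytes stayed below 3 TPM in every library. The exception, CD68, a lysosomal protein of macrophages, ranged from 42.4 to 162 TPM. In bulk RNA a smaller number of cells of a type and less RNA per cell cannot be told apart. TERT was at most 0.543 TPM in primary libraries and from 31.6 to 193 TPM in all later ones. HRAS was no higher in metastasizing than in transformed cells at atmospheric oxygen (94.6 and 78.1 TPM against 120 and 99), so its level does not check that label. The pair of metastasizing libraries at 3% oxygen stood apart from each other: 11% of genes differed beyond 2-fold between them, against 1.83% to 4.08% in the other 7 groups, HRAS was 143 TPM in library a and 772 TPM in library b, and 30 of the 34 genes were higher in b, 11 of them beyond 2-fold. Medians and some counts in metastasizing cells at 3% oxygen are therefore also given without each library of the pair, as are values of single genes there that lost a call or moved widely.

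Values are TPM (length-scaled transcript abundances that sum to a fixed total per library), summed over the transcripts of a gene. Levels can therefore be set side by side between genes. Fold changes are differences of log2(TPM + 0.5) with their standard errors (SE), and a gene was called where the adjusted p-value was under 0.01 and the fold change beyond 2-fold, from 2 libraries per group. For oxygen, a second count used an adjusted p-value under 0.05 with no fold minimum. The SE of a gene comes from a spread shared by all 8 groups. It may thus be too small where the wider metastasizing 3% pair is compared and too large elsewhere.

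To show the stretches of DNA where SREBPs and their partners may act, the 250 bases before the start of 5 genes that changed with oxygen were taken from RefSeq (GRCh38.p14), each 5′ to 3′ on the strand of its gene. Capitals mark TCACNCCAC, a form of the sterol regulatory element, and CCAAT, the motif of the factor NF-Y, on either strand. SREBF2 encodes SREBP2, INSIG1 the sterol-dependent brake, HMGCS1 the HMG-CoA synthase of the mevalonate pathway, STARD4 a cytosolic cholesterol carrier and SCD the stearoyl-CoA desaturase that makes oleate.
SREBF2: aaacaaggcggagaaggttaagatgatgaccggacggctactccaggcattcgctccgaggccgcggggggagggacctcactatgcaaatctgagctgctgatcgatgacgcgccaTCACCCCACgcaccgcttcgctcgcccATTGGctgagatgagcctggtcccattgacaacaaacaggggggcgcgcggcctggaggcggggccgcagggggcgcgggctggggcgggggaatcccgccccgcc
INSIG1: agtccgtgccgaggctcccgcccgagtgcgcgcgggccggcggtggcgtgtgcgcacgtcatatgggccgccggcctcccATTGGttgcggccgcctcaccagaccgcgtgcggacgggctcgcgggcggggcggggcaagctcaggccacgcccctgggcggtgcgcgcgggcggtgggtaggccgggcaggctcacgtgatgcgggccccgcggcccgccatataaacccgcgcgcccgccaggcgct
HMGCS1: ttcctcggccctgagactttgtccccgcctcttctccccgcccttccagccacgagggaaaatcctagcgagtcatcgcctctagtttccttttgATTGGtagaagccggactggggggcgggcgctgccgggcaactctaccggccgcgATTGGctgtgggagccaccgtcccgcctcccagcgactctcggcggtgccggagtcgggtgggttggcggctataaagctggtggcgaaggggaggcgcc
STARD4: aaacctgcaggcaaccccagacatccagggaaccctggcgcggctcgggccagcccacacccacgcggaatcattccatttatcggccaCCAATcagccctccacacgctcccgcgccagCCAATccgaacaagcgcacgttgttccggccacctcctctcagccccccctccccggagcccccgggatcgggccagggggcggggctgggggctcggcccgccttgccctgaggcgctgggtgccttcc
SCD: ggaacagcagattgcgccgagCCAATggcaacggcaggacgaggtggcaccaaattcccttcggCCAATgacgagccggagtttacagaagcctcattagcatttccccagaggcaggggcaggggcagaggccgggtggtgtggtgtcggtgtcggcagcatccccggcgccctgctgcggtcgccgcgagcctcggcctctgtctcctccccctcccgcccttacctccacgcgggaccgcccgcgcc

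The windows lie at chr22:41832855-41833104 (plus strand), chr7:155297628-155297877 (plus strand), chr5:43313413-43313662 (minus strand), chr5:111512536-111512785 (minus strand) and chr10:100346983-100347232 (plus strand), in that order. The sterol regulatory element in the SREBF2 window begins 133 bases before the start, and the NF-Y motif 106 bases before it. The other 4 windows hold the NF-Y motif but not TCACNCCAC. The INSIG1 window also holds CACGTG, which is not marked. The 5 shown are a selection. Among other windows of genes called for oxygen, those of FADS1 and INSIG2 and another window each of HMGCS1 and DHCR7 held neither motif. The window of TM7SF2 and the remaining window of DHCR7 held CCAAT. ACAT2, also called for oxygen, had no window among those searched. Of 44 windows of 31 listed genes in the RefSeq table, 26 held CCAAT, as did 32% of all 35116 windows of the same length. TCACNCCAC was found in 1 of the 44 windows, against 0.883% of all, CACGTG, the E-box, in 5, against 6.34%, and ACGTG, the core of the hypoxia response element, which also lies within the E-box, in 11, against 18.5%. A match is a description of letters, not evidence of binding, and windows of one gene can overlap.

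At atmospheric oxygen the levels rose and fell from stage to stage. Many genes of both pathways were low in primary cells, high in immortalized cells, low again in transformed cells and high in metastasizing cells. For 19 of the 34 genes, all 4 immortalized and metastasizing libraries lay above all 4 primary and transformed libraries, against 7.01% of 12874 genes expressed at atmospheric oxygen. These were 3 of 5 regulators, 11 of 19 cholesterol genes and 5 of 10 fatty acid genes. The pattern was noticed in the values and then counted, so the count is a description. At 3% oxygen it held for 0 of 34 genes, against 2.67% of 12782 genes. Without metastasizing library a it held for 2 (FADS2 and LPIN1), against 5.13% of all genes, and without library b for 1 (LSS), against 4.05%. Primary cells had the lowest mean of the 4 stages in 24 of 34 genes at atmospheric oxygen but in 7 at 3% oxygen, where they had the highest mean in 15. This order was not counted over all genes, so whether it is particular to the 34 is not known.

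**Figure D1:**
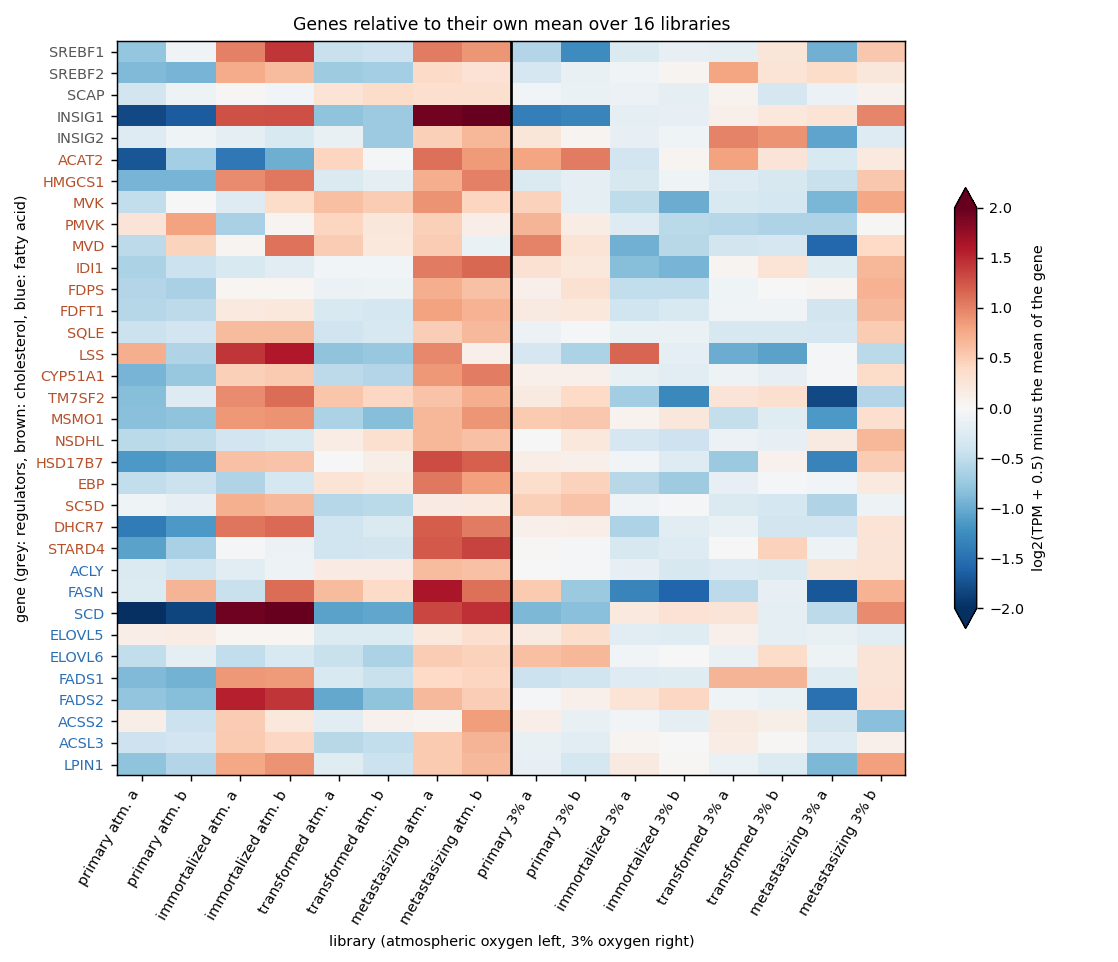
Colours show log2(TPM + 0.5) of 34 genes in each of the 16 libraries minus the mean of the gene, with libraries at atmospheric oxygen left of the black line and those at 3% oxygen right of it. On the left, blue columns (primary, transformed) alternate with red columns (immortalized, metastasizing), as counted for 19 genes, while the right side holds paler columns and a pale or red metastasizing library b beside a bluer library a.

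The regulators come first. SREBF2 (GRCh37 chr22:42229109-42303310, plus strand), which encodes the SREBP that acts mainly on cholesterol genes, measured 33.7 and 32.7 TPM in the primary libraries, 104 and 97.2 in the immortalized ones, 37.8 and 38.9 in the transformed ones and 81.4 and 75.9 in the metastasizing ones at atmospheric oxygen. The libraries at 3% oxygen gave 49.3 and 56.1 TPM in the primary libraries, 59.4 and 65 in the immortalized ones, 109 and 75.4 in the transformed ones and 80.4 and 72.9 in the metastasizing ones. Both primary and both transformed libraries were thus low at atmospheric oxygen, and at 3% oxygen the stages lay closer together. With oxygen lowered, SREBF2 rose in transformed cells (log2 fold change 1.23 ± 0.15, adjusted p = 0.000181), all 3% libraries lying above all atmospheric ones. The change was under 2-fold in primary cells (log2 fold change 0.66 ± 0.15, adjusted p = 0.00791) and in immortalized cells, where it fell (log2 fold change -0.69 ± 0.15, adjusted p = 0.00584), and the value in metastasizing cells was -0.04 (-0.11 without 3% library a and 0.03 without b).

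SREBF1 (GRCh37 chr17:17713713-17740316, minus strand), the gene of the other SREBPs, known to act on fatty acid genes among others, measured 32.4 and 53.1 TPM in the primary libraries, 114 and 151 in the immortalized ones, 41.1 and 41.9 in the transformed ones and 115 and 104 in the metastasizing ones at atmospheric oxygen. At 3% oxygen SREBF1 measured 37 and 23.1 TPM in the primary libraries, 45.9 and 50.1 in the immortalized ones, 49.2 and 66.4 in the transformed ones and 28.4 and 81.5 in the metastasizing ones. Its libraries were high in immortalized and metastasizing cells at atmospheric oxygen, and in every other group at least 1 library was below 54 TPM. None of its 4 oxygen comparisons was called: the log2 fold change was -0.50 for primary cells, -1.44 for immortalized cells (adjusted p = 0.0246), 0.46 for transformed cells and -1.17 for metastasizing cells (-0.42 without 3% library a and -1.93 without b).

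From 63.7% to 74.8% of the SREBF1 TPM of a library came from transcripts annotated as retaining an intron. Coding transcripts from the upstream start (positions 17740300 to 17740316) summed to 5.64 and 11.4 TPM in the primary libraries, 13.6 and 33.1 in the immortalized ones, 7.21 and 6.71 in the transformed ones and 22.7 and 14.8 in the metastasizing ones at atmospheric oxygen. The coding transcript from the downstream start (position 17726932) gave 0.474 and 3.11 TPM in the primary libraries, 4 and 9.51 in the immortalized ones, 1.29 and 0.584 in the transformed ones and 3.97 and 4.59 in the metastasizing ones. Both starts thus had their higher values in immortalized and metastasizing libraries, and the upstream start gave more TPM than the downstream one in all 16 libraries. At 3% oxygen the upstream start gave 5.27 and 2.45 TPM in the primary libraries, 6.17 and 5.13 in the immortalized ones, 6.83 and 11 in the transformed ones and 2.95 and 12.6 in the metastasizing ones, and metastasizing library a lay well below b.

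INSIG1 (GRCh37 chr7:155089486-155101945, plus strand), whose protein retains SCAP in the endoplasmic reticulum and whose window is shown above, had the widest swing among the regulators. It measured 15.5 and 17.1 TPM in the primary libraries, 135 and 136 in the immortalized ones, 31.6 and 33.3 in the transformed ones and 212 and 227 in the metastasizing ones at atmospheric oxygen. The 3% oxygen values were 21.3 and 21.9 TPM in the primary libraries, 48.4 and 49.3 in the immortalized ones, 59.6 and 64.1 in the transformed ones and 67.3 and 109 in the metastasizing ones. The libraries of a pair were close except in metastasizing cells at 3% oxygen. With oxygen lowered INSIG1 fell in immortalized cells (log2 fold change -1.46 ± 0.17, adjusted p = 0.000236) and in metastasizing cells (log2 fold change -1.35 ± 0.17, adjusted p = 0.000293), in both cases without overlap between the groups. Without metastasizing 3% library a its log2 fold change there was -1.003 and without library b -1.70. The rise in transformed cells stayed just under 2-fold (log2 fold change 0.92 ± 0.17, adjusted p = 0.00216), and in primary cells the value was 0.40.

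INSIG2 (GRCh37 chr2:118846028-118868573, plus strand), the related retention protein, did not share this course. It measured 14 and 15.8 TPM in the primary libraries, 14.6 and 13.5 in the immortalized ones, 15.1 and 9.92 in the transformed ones and 23.5 and 27 in the metastasizing ones at atmospheric oxygen. At 3% oxygen the values were 19.9 and 17.4 TPM in the primary libraries, 14.9 and 15.8 in the immortalized ones, 33.9 and 31.9 in the transformed ones and 7.8 and 14 in the metastasizing ones. Transformed libraries at 3% oxygen were the highest of all 16, and metastasizing 3% library a was the lowest. INSIG2 rose with lowered oxygen in transformed cells (log2 fold change 1.39 ± 0.24, adjusted p = 0.00155) and fell in metastasizing cells (log2 fold change -1.23 ± 0.24, adjusted p = 0.0039), a call that was lost without 3% library a (-0.83 on the log2 scale, against -1.63 without b) or without either atmospheric library. SCAP (GRCh37 chr3:47455171-47518616, minus strand), the escort protein, ranged from 21.4 to 35.8 TPM over the 16 libraries and was called in none of the 13 comparisons, its oxygen effects lying between -0.45 in transformed and 0.14 in primary cells.

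**Figure D2:**
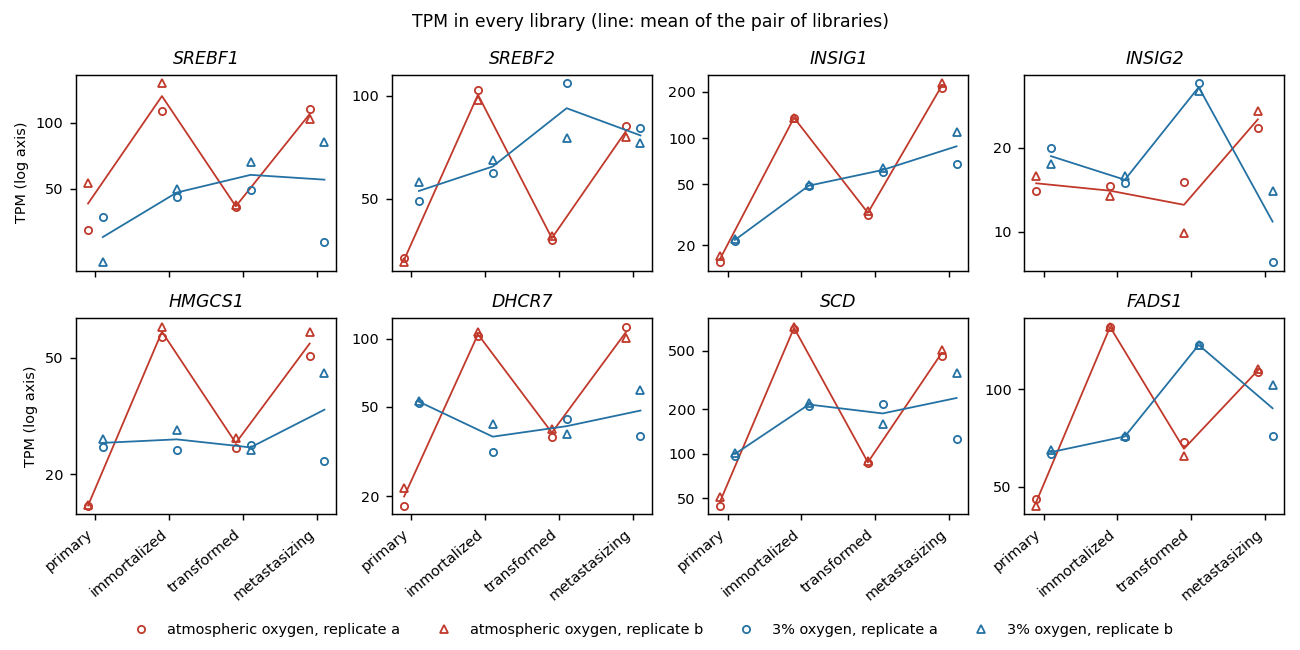
TPM on a log axis for 8 genes in the 4 stages, red at atmospheric and blue at 3% oxygen, with a circle for library a, a triangle for library b and a line through the mean of each pair. The red lines of all but INSIG2 go up, down and up again over the stages, while the blue lines of HMGCS1 and DHCR7 stay flatter, and at 3% oxygen the metastasizing libraries of SREBF1, SCD and HMGCS1 lie far apart.

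The first question is how each stage answered the lower oxygen. In primary cells genes of both pathways tended to be higher at 3% oxygen, in immortalized and metastasizing cells lower, and in transformed cells the cholesterol genes were spread around 0 while fatty acid genes and regulators leaned higher. In primary cells 30 of 34 genes had a higher value at 3% oxygen, with a median log2 fold change of 0.66 against 0.08 over the 12184 genes tested. ACAT2 and DHCR7 were called higher and 0 genes lower, against 2.78% and 2.52% of all genes tested. At an adjusted p-value under 0.05 with no fold minimum, 16 were higher and 0 lower, against 17.2% and 9.46%. Of the cholesterol genes 11 of 19 passed this second count (median 0.79), of the fatty acid genes 4 of 10 (median 0.39) and of the regulators SREBF2 alone of 5 (median 0.31). The count of calls was 0 without atmospheric library a, 1 without 3% library b and 5 without atmospheric library b.

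In immortalized cells the direction was the opposite one. Values were lower at 3% oxygen for 31 of 34 genes, with a median of -0.71 against 0.11 over 12049 genes. The genes called lower were INSIG1, HMGCS1, TM7SF2, DHCR7, SCD and FADS1, 6 in all, and 0 were called higher, against 2.78% lower and 2.13% higher of all genes. The second count gave 13 lower and 1 higher (ACAT2), against 8.82% and 17.7%. It held 7 of the 19 cholesterol genes (median -0.72), 3 of the 10 fatty acid genes (median -0.61) and 3 of the 5 regulators (median -0.69) among the lower ones. From 3 to 4 genes were called when any library of these groups was left out: HMGCS1 and SCD lost the call each time and TM7SF2 in 3 of the 4 cases.

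In transformed cells 22 genes had a higher and 12 a lower value at 3% oxygen, with a median of 0.22 against 0.01 over 12242 genes. SREBF2, INSIG2 and FADS1 were called higher and 0 genes lower, against 4.90% and 2.58%. By the second count 9 were higher and 3 lower, against 18.8% and 15.4%. The cholesterol genes had a median of 0.04 with 2 higher (CYP51A1 and STARD4) and 1 lower (PMVK), and the fatty acid genes a median of 0.42 with 4 higher (SCD, ELOVL6, FADS1 and ACSL3) and 1 lower (ACLY). Of the regulators 3 were higher and SCAP was lower by the second count, with a median of 0.92. The call of SREBF2 was lost without 3% library a, that of FADS1 without atmospheric library b and that of INSIG2 without either.

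In metastasizing cells all 34 genes had a lower mean at 3% oxygen, with a median of -0.80 against -0.13 over 12288 genes. With library b alone at 3% oxygen 29 were lower and 5 higher (median -0.43, against -0.08 over all genes), and with library a alone 33 were lower and 1 higher (median -1.19, against -0.17). Called lower were INSIG1, INSIG2, TM7SF2, DHCR7 and STARD4, 5 in all, and 0 higher, against 4.60% and 3.06%. By the second count 19 were lower and 0 higher, against 17.2% and 10.9%. These were 10 of 19 cholesterol genes (median -0.81), 7 of 10 fatty acid genes (median -0.65) and 2 of 5 regulators (median -1.17). INSIG1 and STARD4 kept their calls without 3% library a, and INSIG2, TM7SF2 and DHCR7 lost them. More genes were called lower with library a alone than with library b alone, among the 34 genes and among all genes. The second count moved the same way. The calls were 3 without either atmospheric library and 0 in a fit of these 4 libraries alone.

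**Figure D3:**
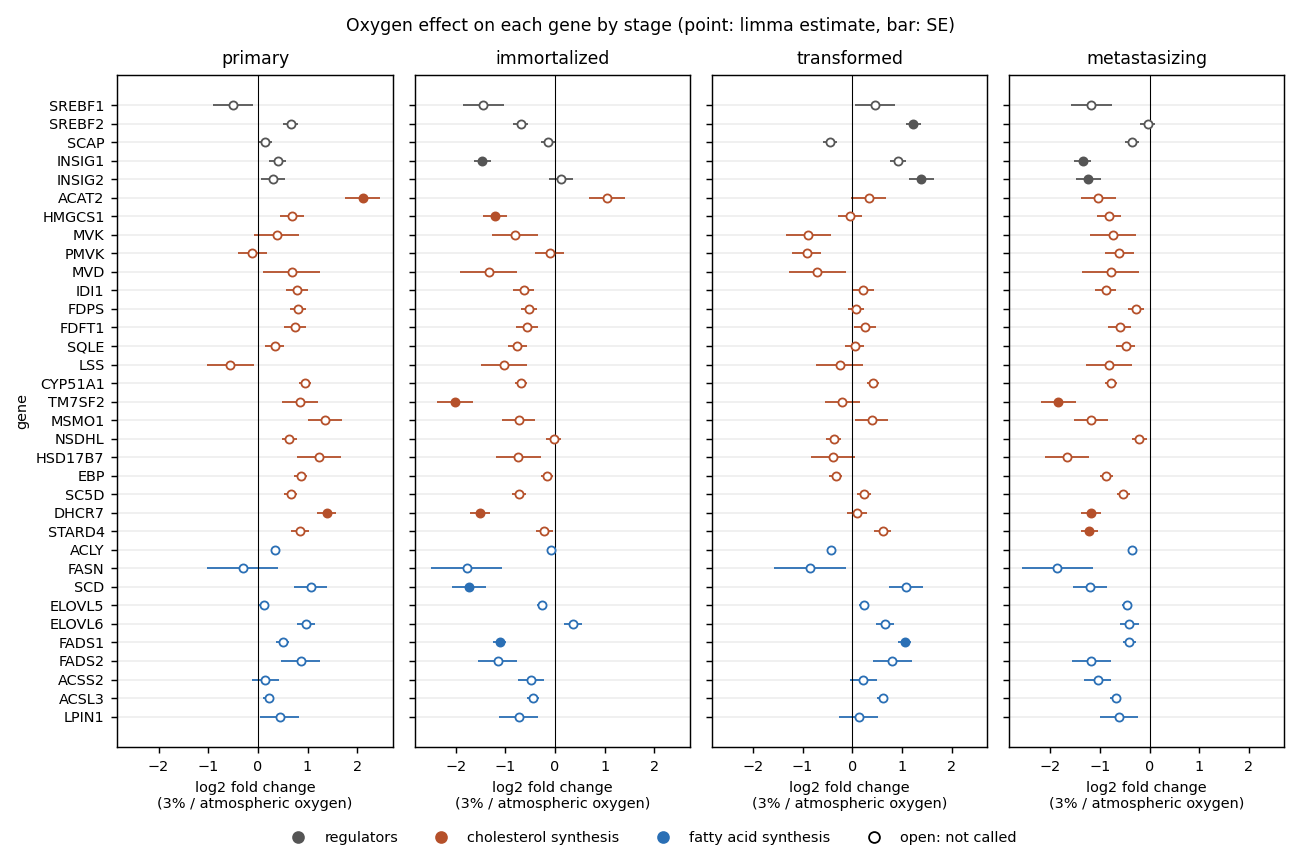
Log2 fold change of each gene between 3% and atmospheric oxygen in the 4 stages, with its SE as a bar, filled where called and coloured by group. Points lie mostly right of 0 in primary cells, left of 0 in immortalized cells and all left of 0 in metastasizing cells, while in transformed cells they scatter around 0.

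Among the cholesterol genes, DHCR7 (GRCh37 chr11:71139239-71163914, minus strand), the reductase that completes cholesterol, was called at 3 stages. It measured 18.2 and 21.7 TPM in the primary libraries, 103 and 107 in the immortalized ones, 36.8 and 39.9 in the transformed ones and 113 and 101 in the metastasizing ones at atmospheric oxygen. The libraries at 3% oxygen gave 52 and 53.2 TPM in the primary libraries, 31.6 and 42 in the immortalized ones, 44.2 and 37.7 in the transformed ones and 37.1 and 59 in the metastasizing ones. The 3% libraries lay above the atmospheric ones in primary cells and below them in immortalized and metastasizing cells, with no overlap. DHCR7 rose in primary cells (log2 fold change 1.38 ± 0.20, adjusted p = 0.000779), fell in immortalized cells (log2 fold change -1.51 ± 0.20, adjusted p = 0.000473) and fell in metastasizing cells (log2 fold change -1.18 ± 0.20, adjusted p = 0.00165), the last not called without 3% library a (-0.85 on the log2 scale, against -1.51 without b) or atmospheric library a, and the first not without atmospheric library a. In transformed cells its log2 fold change was 0.09.

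TM7SF2 (GRCh37 chr11:64879317-64883856, plus strand), a sterol reductase of the endoplasmic reticulum, was expressed at a few TPM. It measured 1.25 and 2.14 TPM in the primary libraries, 5.54 and 6.31 in the immortalized ones, 4.14 and 3.7 in the transformed ones and 4.16 and 4.7 in the metastasizing ones at atmospheric oxygen. At 3% oxygen TM7SF2 measured 3.08 and 3.67 TPM in the primary libraries, 1.45 and 0.786 in the immortalized ones, 3.26 and 3.43 in the transformed ones and 0.4 and 1.61 in the metastasizing ones. All values were under 7 TPM and so weigh little, and the protein-coding share of its TPM ran from 0% to 100% between libraries. It fell with lowered oxygen in immortalized cells (log2 fold change -2.02 ± 0.36, adjusted p = 0.00233) and in metastasizing cells (log2 fold change -1.84 ± 0.36, adjusted p = 0.00354), the latter losing its call without 3% library a (-1.22, adjusted p = 0.0137, against -2.45 without b), atmospheric a (0.0208) or atmospheric b (0.0275).

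HMGCS1 (GRCh37 chr5:43287572-43313614, minus strand), which starts the mevalonate pathway, measured 15.6 and 15.7 TPM in the primary libraries, 59.1 and 63.8 in the immortalized ones, 24.6 and 26.5 in the transformed ones and 50.7 and 61.3 in the metastasizing ones at atmospheric oxygen. The 3% oxygen values were 24.7 and 26.5 TPM in the primary libraries, 24.2 and 28.5 in the immortalized ones, 25.2 and 24.2 in the transformed ones and 22.2 and 44.4 in the metastasizing ones. At 3% oxygen every library but metastasizing b lay between 22.2 and 28.5 TPM. It fell with lowered oxygen in immortalized cells (log2 fold change -1.21 ± 0.24, adjusted p = 0.00416), without overlap, and in primary cells, where the 3% libraries were the higher ones, it was not called (log2 fold change 0.69 ± 0.24, adjusted p = 0.0537). In metastasizing cells it was -0.82 (-0.33 without 3% library a and -1.31 without b).

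ACAT2 (GRCh37 chr6:160183077-160200144, plus strand), the thiolase that supplies acetoacetyl-CoA, was the only 1 of the 34 genes to pass the second count as higher in immortalized cells. It measured 0.707 and 1.98 TPM in the primary libraries, 0.966 and 1.5 in the immortalized ones, 4.84 and 3.37 in the transformed ones and 7.97 and 6.63 in the metastasizing ones at atmospheric oxygen. At 3% oxygen the values were 6.33 and 7.64 TPM in the primary libraries, 2.53 and 3.61 in the immortalized ones, 6.41 and 4.21 in the transformed ones and 2.71 and 4.02 in the metastasizing ones. These are low values, and the pairs of libraries overlapped between oxygen levels in transformed cells alone. ACAT2 rose in primary cells (log2 fold change 2.11 ± 0.35, adjusted p = 0.00178) and had a higher value at 3% oxygen in immortalized cells too (1.04, adjusted p = 0.0495), as did INSIG2 (0.13) and ELOVL6 (0.36), which passed neither count. The call in primary cells was lost without atmospheric library a (adjusted p = 0.0186) and without 3% library b (adjusted p = 0.0197).

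STARD4 (GRCh37 chr5:110831731-110848288, minus strand), the cholesterol carrier, measured 21.1 and 28.4 TPM in the primary libraries, 44 and 40.9 in the immortalized ones, 33.8 and 34.4 in the transformed ones and 105 and 115 in the metastasizing ones at atmospheric oxygen. The libraries at 3% oxygen gave 45.5 and 43.5 TPM in the primary libraries, 35.6 and 37.4 in the immortalized ones, 44.4 and 61.7 in the transformed ones and 41.4 and 53.6 in the metastasizing ones. Metastasizing libraries at atmospheric oxygen stood above all others. STARD4 fell there with lowered oxygen (log2 fold change -1.21 ± 0.18, adjusted p = 0.000686), and it kept its call without either 3% library (-1.03 without a and -1.39 without b on the log2 scale).

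CYP51A1, the oxygen-consuming lanosterol demethylase, was not called in any oxygen comparison but passed the second count at all 4 stages. It measured 32 and 36.3 TPM in the primary libraries, 85.6 and 88.9 in the immortalized ones, 42.7 and 40.7 in the transformed ones and 113 and 125 in the metastasizing ones at atmospheric oxygen. At 3% oxygen CYP51A1 measured 66.3 and 65.8 TPM in the primary libraries, 55.5 and 52.9 in the immortalized ones, 57.3 and 54.8 in the transformed ones and 60.7 and 79.3 in the metastasizing ones. No pair overlapped between oxygen levels at any stage. Its log2 fold change was 0.94 ± 0.12 (SE) for primary cells, -0.68 ± 0.12 for immortalized cells, 0.42 ± 0.12 for transformed cells and -0.78 ± 0.12 for metastasizing cells (-0.58 without 3% library a and -0.97 without b).

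Other cholesterol genes were counted rather than called for oxygen. FDPS, which makes farnesyl diphosphate, and FDFT1 and SQLE, which lead to and oxidize squalene, had lower primary than immortalized means at atmospheric oxygen and log2 oxygen effects of 0.82, 0.75 and 0.34 in primary and -0.52, -0.56 and -0.76 in immortalized cells. MSMO1, EBP, SC5D and NSDHL, later steps of sterol synthesis, were higher in primary cells by the second count, with log2 fold changes from 0.63 (NSDHL) to 1.35 (MSMO1). IDI1, the isomerase of isopentenyl diphosphate, was 0.79 in primary and -0.89 in metastasizing cells (-0.43 without 3% library a and -1.34 without b). MVK, MVD, PMVK and LSS had libraries that differed within pairs, such as LSS with 96.1 and 38.1 TPM in primary cells at atmospheric oxygen, and PMVK in transformed cells was the only 1 of their 16 oxygen comparisons to pass the second count. HSD17B7, a ketosteroid reductase whose sequence is shared in part with a pseudogene, fell in metastasizing cells by the second count (-1.66, adjusted p = 0.0184), with 2.91 and 11.7 TPM in the 3% libraries, but did not pass it without library a (-0.74 without 3% library a and -2.58 without b).

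Among the fatty acid genes, SCD (GRCh37 chr10:102106990-102124583, plus strand) had the highest TPM of any library among the 34 genes, 727, and the widest range over stages at atmospheric oxygen. It measured 44.6 and 50.6 TPM in the primary libraries, 707 and 727 in the immortalized ones, 86.3 and 88.8 in the transformed ones and 463 and 505 in the metastasizing ones at atmospheric oxygen. The 3% oxygen values were 97.3 and 102 TPM in the primary libraries, 210 and 223 in the immortalized ones, 217 and 158 in the transformed ones and 126 and 352 in the metastasizing ones. At atmospheric oxygen immortalized libraries stood far above primary and transformed ones, and metastasizing 3% library a lay below b. SCD fell with lowered oxygen in immortalized cells (log2 fold change -1.73 ± 0.34, adjusted p = 0.00388). In the others it passed the second count with a higher value in primary (1.06) and transformed cells (1.08) and a lower one in metastasizing cells (-1.19). The last did not pass without 3% library a (adjusted p = 0.0552), the value being -0.46 without 3% library a and -1.93 without b.

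FADS1 (GRCh37 chr11:61567099-61596790, minus strand), a desaturase of polyunsaturated fatty acids, measured 46 and 43.8 TPM in the primary libraries, 155 and 155 in the immortalized ones, 68.6 and 62.4 in the transformed ones and 113 and 115 in the metastasizing ones at atmospheric oxygen. At 3% oxygen the values were 63.1 and 64.8 TPM in the primary libraries, 71 and 71.9 in the immortalized ones, 137 and 136 in the transformed ones and 71.9 and 103 in the metastasizing ones. The pairs were tight except in metastasizing cells at 3% oxygen. FADS1 fell in immortalized cells (log2 fold change -1.11 ± 0.13, adjusted p = 0.000252) and rose in transformed cells (log2 fold change 1.06 ± 0.13, adjusted p = 0.00023), without overlap in either. FADS2, the neighbouring desaturase, measured 129 and 124 TPM in the primary libraries, 655 and 603 in the immortalized ones, 110 and 128 in the transformed ones and 351 and 316 in the metastasizing ones at atmospheric oxygen. The libraries at 3% oxygen gave 219 and 240 TPM in the primary libraries, 269 and 297 in the immortalized ones, 211 and 204 in the transformed ones and 79.2 and 274 in the metastasizing ones. It followed the same up and down course at atmospheric oxygen. At every stage its 3% libraries lay apart from its atmospheric ones, lower in immortalized and metastasizing cells and higher in the others. The test uses a spread shared by all groups, the wide metastasizing 3% pair included. None of its oxygen effects was called, and -1.17 in metastasizing cells (adjusted p = 0.0451) was the only 1 to pass the second count. It did not pass without 3% library a (adjusted p = 0.104), the value being -0.28 without 3% library a and -2.07 without b.

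ACSL3, which activates long-chain fatty acids, measured 71.4 and 73 TPM in the primary libraries, 138 and 127 in the immortalized ones, 65 and 67.3 in the transformed ones and 138 and 154 in the metastasizing ones at atmospheric oxygen. At 3% oxygen ACSL3 measured 86.2 and 81.5 TPM in the primary libraries, 99.1 and 94.7 in the immortalized ones, 106 and 96.5 in the transformed ones and 79.2 and 103 in the metastasizing ones. Its oxygen effects were under 2-fold, with the second count passed in immortalized (-0.45), transformed (0.61) and metastasizing cells (-0.69, or -0.50 without 3% library a and -0.87 without b). ACLY, which makes cytosolic acetyl-CoA from citrate, stayed between 97.2 and 199 TPM, and its values at 3% oxygen were higher in primary and lower in transformed and metastasizing cells by the second count, all within -0.44 and 0.34 on the log2 scale. FASN, the fatty acid synthase, had wide pairs, with 21.9 and 65.6 TPM in immortalized cells at atmospheric oxygen, and passed neither count at any stage, although its log2 fold changes were -1.78 in immortalized cells (adjusted p = 0.0895) and -1.86 in metastasizing cells (adjusted p = 0.0749, -0.66 without 3% library a and -3.05 without b). ELOVL6 and ELOVL5, fatty acid elongases, moved by at most 0.98 (ELOVL6 in primary cells). ACSS2, which makes acetyl-CoA from acetate, passed the second count in metastasizing cells alone (-1.05, or -1.28 without 3% library a and -0.81 without b, the last not passing), and LPIN1, the lipin that makes diacylglycerol, at no stage.

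SREBF1, TM7SF2, EBP and ACSS2 were the 4 genes whose median share of TPM from protein-coding transcripts was under 50%. With protein-coding transcripts alone the medians over the 34 genes were 0.60, -0.75, 0.20 and -0.72 for oxygen, in stage order.

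The second question is whether the oxygen effect differed between neighbouring stages, which the interaction term tests. From primary to immortalized cells the effect became more negative for 33 of 34 genes, with a median difference of -1.25 against 0.02 over 12632 genes. Lower differences were called for 11 genes, SREBF2, INSIG1, HMGCS1, FDPS, CYP51A1, TM7SF2, EBP, SC5D, DHCR7, SCD and FADS1, and higher ones for 0, against 1.06% and 0.800% of all genes. With no fold minimum 18 were lower and 0 higher, against 3.70% and 3.97%. From 3 to 5 genes were called when 1 of the 8 libraries was left out. The largest differences were those of DHCR7 (-2.89 ± 0.28 on the log2 scale, adjusted p = 0.000366), TM7SF2 (-2.86 ± 0.50 on the log2 scale, adjusted p = 0.00726) and SCD (-2.79 ± 0.48 on the log2 scale, adjusted p = 0.00641).

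The genes called in this difference but in no oxygen comparison were FDPS, EBP, SC5D and CYP51A1. FDPS measured 169 and 162 TPM in primary cells at atmospheric oxygen and 273 and 312 at 3% oxygen, and 259 and 260 in immortalized cells at atmospheric oxygen and 180 and 181 at 3% oxygen. EBP, the sterol isomerase, measured 27.2 and 28.4 TPM in primary cells at atmospheric oxygen and 49.2 and 52.8 at 3% oxygen, and 25.2 and 30 in immortalized cells at atmospheric oxygen and 26 and 23.2 at 3% oxygen. SC5D, the oxygen-consuming sterol desaturase, measured 24.9 and 23.5 TPM in primary cells at atmospheric oxygen and 37.2 and 39.8 at 3% oxygen, and 43.8 and 41.9 in immortalized cells at atmospheric oxygen and 25.3 and 26.2 at 3% oxygen. In each the 3% libraries of primary cells lay above the atmospheric ones, and in immortalized cells FDPS and SC5D lay below them while EBP overlapped.

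From immortalized to transformed cells the effect turned upwards, with a median difference of 0.84 against -0.08 over 12715 genes. Called higher were 7 genes, SREBF2, INSIG1, CYP51A1, DHCR7, SCD, FADS1 and ACSL3, and 0 lower, against 6.13% and 5.84%. With no fold minimum 16 were higher and 1 lower (ACLY), against 13.7% and 18.3%. SCD (2.81 ± 0.48 on the log2 scale, adjusted p = 0.00145), INSIG1 (2.38 ± 0.24 on the log2 scale, adjusted p = 7.97e-05) and FADS1 (2.17 ± 0.19 on the log2 scale, adjusted p = 3.55e-05) differed most.

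From transformed to metastasizing cells it turned down again, with a median difference of -1.09 against -0.15 over 12590 genes. Called lower were 9 genes, SREBF2, INSIG1, INSIG2, CYP51A1, DHCR7, STARD4, SCD, FADS1 and ACSL3, and 0 higher, against 5.62% and 2.84%. With no fold minimum 17 were lower and 0 higher, against 15.8% and 9.53%. INSIG2 (-2.62 ± 0.34 on the log2 scale, adjusted p = 0.000491), INSIG1 (-2.27 ± 0.24 on the log2 scale, adjusted p = 0.000156) and SCD (-2.27 ± 0.48 on the log2 scale, adjusted p = 0.00613) led. Without metastasizing 3% library a the median difference was -0.77, against -0.09 over all genes tested, and DHCR7 lost its call. Without library b the median was -1.38, against -0.20 over all genes tested. A fit of the 8 transformed and metastasizing libraries alone called 0 of the listed genes. Neighbouring differences share the libraries of the stage between them, so their opposite signs are not independent.

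The stage steps at each oxygen level show the same libraries from the other side, since each group enters both a step and an oxygen comparison. At atmospheric oxygen hTERT cells against primary cells had 12 genes called higher and 0 lower, against 5.98% and 6.26% of all genes, with a median log2 fold change of 0.80 against -0.09. SCD (log2 fold change 3.90 ± 0.34, adjusted p = 9.57e-06), INSIG1 (log2 fold change 3.02 ± 0.17, adjusted p = 4.08e-07) and DHCR7 (log2 fold change 2.37 ± 0.20, adjusted p = 7.7e-06) led. Cells with SV40 against hTERT cells had 12 called lower and 1 higher (ACAT2), against 11.2% and 13.2%, with a median of -0.52 against 0.22, and SCD again differed most (log2 fold change -3.03 ± 0.34, adjusted p = 2.24e-05), followed by FADS2 (log2 fold change -2.40 ± 0.39, adjusted p = 0.000352) and LSS (log2 fold change -2.29 ± 0.47, adjusted p = 0.0016). Cells with Ras-G12V against cells with SV40 had 11 called higher and 0 lower, against 2.40% and 1.72%, with a median of 0.97 against 0.06. INSIG1 (log2 fold change 2.74 ± 0.17, adjusted p = 1.54e-05) and SCD (log2 fold change 2.46 ± 0.34, adjusted p = 0.000689) led this step too.

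At 3% oxygen the steps were smaller. Immortalized against primary cells gave 1 gene called higher (INSIG1, log2 fold change 1.16 ± 0.17, adjusted p = 0.000496) and 2 lower (IDI1, log2 fold change -1.15 ± 0.22, adjusted p = 0.00251, and EBP, log2 fold change -1.04 ± 0.13, adjusted p = 0.000155), against 4.19% and 5.04% of all genes. Transformed against immortalized cells gave 2 higher (INSIG2, log2 fold change 1.08 ± 0.24, adjusted p = 0.00418, and IDI1, log2 fold change 1.05 ± 0.22, adjusted p = 0.00261) and 0 lower, against 8.96% and 7.38%. Metastasizing against transformed cells gave 0 higher and 1 lower (INSIG2, log2 fold change -1.61 ± 0.24, adjusted p = 0.00094), against 1.99% and 3.93%. The medians of these 3 steps were -0.28, 0.22 and 0.01, against -0.06, 0.11 and -0.07 over all genes. The last median was 0.50 without metastasizing 3% library a, against -0.02 over all genes, and -0.31 without b, against -0.13. Its sign thus rests on the library kept, while INSIG2 had a lower value in both cases (-1.21 and -2.01).

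The range of a gene over the 4 stage means put this in 1 number. It had a median of 1.47 on the log2 scale at atmospheric and 0.87 at 3% oxygen over the 34 genes, and 0.944 and 0.845 over 13146 genes. The range was smaller at 3% oxygen in 29 of 34 genes (85.3%), against 57.3% of all genes. By group these were 17 of 19 cholesterol genes (medians 1.58 and 0.878), 8 of 10 fatty acid genes (1.15 and 0.71) and 4 of 5 regulators (1.59 and 0.955). A range beyond 2-fold was seen in 27 genes (79.4%) at atmospheric and in 12 (35.3%) at 3% oxygen, against 46.3% and 40.2% of all genes. With metastasizing 3% library a or b alone the smaller range held for 28 of 34, and over the first 3 stages, without metastasizing cells, for 24 of 34 (70.6%), against 55.9% of all genes. HMGCS1 went from 1.94 to 0.339 and SCD from 3.9 to 1.11, whereas INSIG2, PMVK, MVD, FASN and ACSS2 had the larger range at 3% oxygen.

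**Figure D4:**
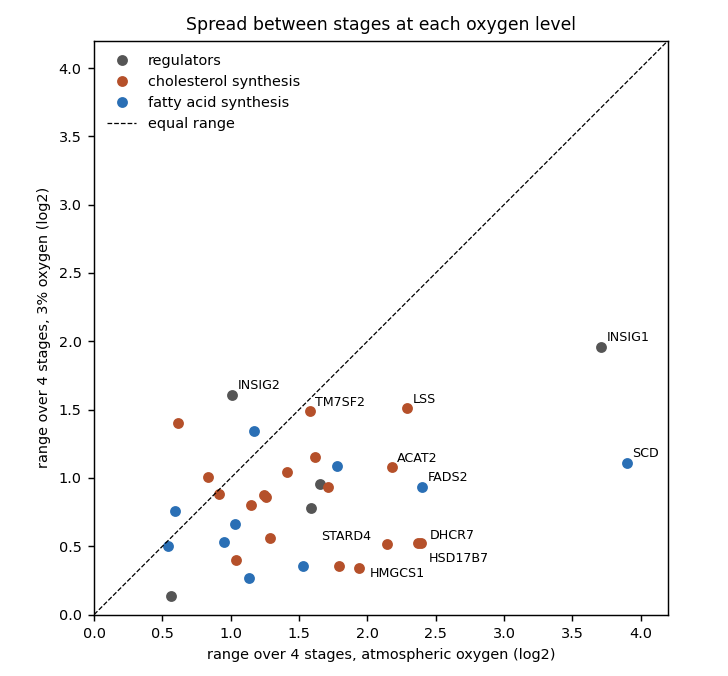
Range of each gene over the 4 stage means of log2(TPM + 0.5), at atmospheric oxygen on the horizontal and at 3% oxygen on the vertical axis, with the dashed line where both are equal. Of the 34 genes 29 lie below the line, SCD and INSIG1 farthest to the right, and 5 lie above it.

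Other genes of the pathway were counted from lists drawn up with earlier results of these data known, and their calls are to be read against the shares of all genes called for oxygen, higher and lower: 2.78% and 2.52% in primary cells, 2.13% and 2.78% in immortalized cells, 4.90% and 2.58% in transformed cells and 3.06% and 4.60% in metastasizing cells. Of 12 genes that process or degrade SREBPs and their regulators, such as the proteases MBTPS1 and MBTPS2, 1 was called for oxygen over the 4 stages, ERLIN2 in primary cells (log2 fold change 1.14 ± 0.24, adjusted p = 0.00546). Of 9 other genes of cholesterol and isoprenoid synthesis 0 were called in primary and immortalized cells, 2 were called higher in transformed cells (GGPS1, log2 fold change 1.37 ± 0.14, adjusted p = 6.27e-05, and FAXDC2, log2 fold change 1.09 ± 0.26, adjusted p = 0.00841) and 2 lower in metastasizing cells (ERG28, log2 fold change -1.16 ± 0.14, adjusted p = 0.000279, and FAXDC2, log2 fold change -1.22 ± 0.26, adjusted p = 0.00603), neither called without 3% library a (-0.92 and -0.75). Of 23 other fatty acid genes, 2 were called, both higher in metastasizing cells: DGAT2, which makes triacylglycerol (log2 fold change 2.47 ± 0.37, adjusted p = 0.000774), and GPAM, an acyltransferase that starts glycerolipid synthesis (log2 fold change 1.11 ± 0.21, adjusted p = 0.00348). Without 3% library a DGAT2 was called (2.92) and GPAM was not (0.84).

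Genes of sterol export, storage and sensing, which handle sterols after their synthesis, were counted too. Of 12 listed, 10 or 11 were tested at each stage. In primary cells 1 was called higher and 2 lower, against 2.78% and 2.52% of all genes, and in immortalized cells 0 and 4, against 2.13% and 2.78%. In transformed cells it was 3 and 0, against 4.90% and 2.58%, and in metastasizing cells 1 and 2, against 3.06% and 4.60%. NPC1 and NPC2, which carry cholesterol out of lysosomes, differed between stages: NPC1 was higher in primary (log2 fold change 1.09 ± 0.12, adjusted p = 0.000193) and transformed cells (log2 fold change 1.09 ± 0.12, adjusted p = 0.000141), and NPC2 lower in immortalized (log2 fold change -1.28 ± 0.10, adjusted p = 2.8e-05) and metastasizing cells (log2 fold change -1.32 ± 0.10, adjusted p = 1.35e-05). ABCA1, the cholesterol exporter, was lower in immortalized (log2 fold change -1.40 ± 0.31, adjusted p = 0.00708) and higher in metastasizing cells (log2 fold change 1.91 ± 0.31, adjusted p = 0.00129). Without either metastasizing 3% library ABCA1 (2.49 without 3% library a and 1.33 without b) and NPC2 (-1.36 without 3% library a and -1.29 without b) were still called.

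Values of other kinds moved beside these results, and their part in them was not tested. Of 5 proliferation genes, 3 in primary and 5 in immortalized cells were higher at 3% oxygen by the second count, against 17.2% and 17.7% of all genes. Their medians were 0.49 and 0.82 there, and 0.00 and -0.28 in transformed and metastasizing cells. The last was 0.05 without metastasizing 3% library a and -0.51 without b. Of 6 hypoxia markers tested, 2 were called higher in primary cells, 3 in immortalized cells, 5 in transformed cells and 1 in metastasizing cells. The shares of all genes called higher were 2.78%, 2.13%, 4.90% and 3.06%, in that order. Of 9 fibroblast markers 0 were called higher and 1 lower in primary cells, 1 and 1 in immortalized cells, 0 and 1 in transformed cells and 0 and 5 in metastasizing cells, with medians of -0.45, 0.30, -0.23 and -1.76. In metastasizing cells the median was -1.26 without 3% library a and -2.53 without b. With both libraries, the share of all genes called lower in metastasizing cells was 4.60%.

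CD68 also moved with the listed genes in part, and its part in the results was not tested. It measured 48.9 and 48.3 TPM in the primary libraries, 154 and 162 in the immortalized ones, 81.3 and 92.3 in the transformed ones and 108 and 102 in the metastasizing ones at atmospheric oxygen. The 3% oxygen values were 64.2 and 63.7 TPM in the primary libraries, 84.5 and 78.1 in the immortalized ones, 42.4 and 63.4 in the transformed ones and 44.3 and 83.3 in the metastasizing ones. It was lowest in primary and highest in immortalized libraries at atmospheric oxygen. CD68 rose from primary to immortalized cells at atmospheric oxygen (log2 fold change 1.69 ± 0.24, adjusted p = 0.000323), and with lowered oxygen it was lower by the second count in immortalized (-0.95), transformed (-0.73) and metastasizing cells (-0.78, or -0.33 without 3% library a and -1.24 without b). The other leukocyte markers, PTPRC and LYZ, stayed below 3 TPM.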

How the data were processed

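Transcript TPM of 16 libraries were deposited; per the labels and the study's methods the authors quantified stranded mRNA reads with kallisto 0.42.1 against GRCh37. TPM keep no read depth, so the depth of each library is unknown and no counting intervals are given. Of 180253 transcripts 151453 were matched to GENCODE release 44 lifted to GRCh37, holding 88.2% to 90.1% of each library's TPM, and were summed per gene. Low or multi-copy genes, and genes sharing sequence with pseudogenes, are uncertain because reads were divided by estimation.

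Log2(TPM + 0.5) of 13146 genes with a group mean of at least 1 TPM was fitted over all 16 libraries with limma 3.58.1 in R 4.3.3 (empirical Bayes with intensity trend, 8 residual degrees of freedom). Benjamini-Hochberg adjustment was made over all protein-coding genes at 1 TPM or more in a compared group. A call needed an adjusted p-value under 0.01 and a change beyond 2-fold. The 13 comparisons were oxygen at each stage, each step at each oxygen level and the change of that oxygen effect from a stage to the next. The model was tested on simulated data. All listed genes are accounted for by name or by count. Python 3.11.15, pandas 2.3.3, numpy 2.4.6 and matplotlib 3.10.9 were used for the other steps.

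The genes and lists were chosen with earlier results of these data known. Alternatives were the pseudocount, the filter, the scaling, the libraries in the fit, the replicate letter, the trend, library weights and each library left out. Protein-coding transcripts alone, a crossed pairing, the settings of the stage range and pattern and the values without each metastasizing 3% library for all listed genes were chosen after seeing the data.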

Additional observations from a re-analysis of the deposited data

Results flagged for a closer look

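The oxygen effect differed between neighbouring stages, by limma's interaction test at an adjusted p-value under 0.01 and beyond 2-fold, for the genes that follow, given as log2 differences. Neighbouring differences share a stage and are not independent.

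Immortalized minus primary cells gave -2.89 for DHCR7, -2.86 for TM7SF2, -2.79 for SCD, -1.90 for HMGCS1, -1.86 for INSIG1, -1.63 for CYP51A1, -1.62 for FADS1, -1.38 for SC5D, -1.35 for SREBF2, -1.34 for FDPS and -1.02 for EBP. Transformed minus immortalized cells gave 2.81 for SCD, 2.38 for INSIG1, 2.17 for FADS1, 1.92 for SREBF2, 1.60 for DHCR7, 1.10 for CYP51A1 and 1.06 for ACSL3. Metastasizing minus transformed cells gave -2.62 for INSIG2, -2.27 for INSIG1, -2.27 for SCD, -1.82 for STARD4, -1.46 for FADS1, -1.29 for ACSL3, -1.27 for DHCR7, -1.27 for SREBF2 and -1.20 for CYP51A1. The desaturases SCD and FADS1, the demethylase CYP51A1, the reductase DHCR7 and the regulators SREBF2 and INSIG1 stand in all 3 lists.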

How the results depend on the processing

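Of 1383 values of called genes under alternatives, 1146 kept direction and call, 237 kept direction but lost the call and 0 reversed. The counts that moved most are given by setting, with the cause not tested. With only the groups compared in the fit, the oxygen counts went from 2 to 1 in primary, 3 to 1 in transformed and 5 to 0 in metastasizing cells, metastasizing against transformed at 3% oxygen from 1 to 0, and the differences of the oxygen effect from 11 to 17, 7 to 12 and 9 to 0. With array weights, primary went to 5, metastasizing to 1, immortalized against primary at 3% oxygen from 3 to 5, metastasizing against transformed at 3% oxygen to 0, and the first 2 differences to 18 and 13. With no filter on low values, metastasizing went to 3, transformed against immortalized at 3% oxygen from 2 to 1 and the first difference to 6. Pseudocount 1 gave 2 for metastasizing against transformed at 3% oxygen, and median-ratio rescaling gave 0 for transformed against immortalized at 3% oxygen.

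Leaving out 1 library gave 0 to 5 calls in primary, 3 to 4 in immortalized, 1 to 3 in transformed and 2 to 16 in metastasizing cells. For the steps at atmospheric oxygen it gave 8 to 9, 9 to 11 and 6 to 7, for those at 3% oxygen 1 to 2, 0 to 1 and 1 to 3, and for the differences 3 to 5, 6 to 7 and 7 to 20. The replicate block, with the letter as a term, gave 2, 6, 3 and 5 oxygen calls, 12, 13, 12, 3, 3 and 1 for the steps and 10, 7 and 9 for the differences, and the loss was EBP in the first difference (adjusted p = 0.0127). The letters are known only as names. Deviations of same-lettered libraries at the different oxygen levels of a stage correlated at -0.15, -0.0998, -0.0773 and -0.0973 over genes, in stage order. A crossed pairing of the primary libraries gave 2 calls. These correlations do not measure a shift that same-lettered libraries of different stages might share.

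Median-ratio rescaling moved the median of all genes from 0.22 to 0.00 for transformed against immortalized at atmospheric oxygen, and the medians of the listed genes for oxygen became 0.55, -0.84, 0.22 and -0.67 in stage order.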

Other observations

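Further genes that handle sterols after synthesis had called oxygen effects. CH25H, which makes 25-hydroxycholesterol, was lower at 3% oxygen in immortalized cells (log2 fold change -2.62). Its values there, 3.88 and 2.32 TPM at atmospheric and 0 and 0.151 TPM at 3% oxygen, are low and so weigh little. CYP27A1, which oxidizes the cholesterol side chain, was lower in primary (-1.03) and immortalized cells (-1.39). MYLIP, a ubiquitin ligase for lipoprotein receptors, was lower in primary (-1.05) and metastasizing cells (-1.02, or -0.73 and not called without 3% library a and -1.31 without b) and higher in transformed cells (1.67), and NPC2 was higher in transformed cells (1.03).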
